A study of Mus musculus with 2 samples.

Results

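The genes described here are 41 enzymes that break down amino acids in liver, chosen by symbol and grouped by amino acid. All 41 were found among the 24421 genes of the count tables, and 39 of them passed the filter on low values (at least 20 counts over both libraries and an average of 1 CPM or more, CPM being counts relative to the scaled library total). The RNA was from liver of male C57BL/6 mice, 6 weeks old when a high-fat diet of 12 weeks began. 1 library carried the genotype RORalpha f/f:Alb-Cre and was labelled a liver-specific knockout, LKO. In that line Cre is driven by the albumin promoter, which is active in hepatocytes, so other liver cells were to keep the floxed Rora gene. 1 library came from RORalpha f/f liver, which carries the floxed alleles without Cre, and is called the control. By its title, the study looked for genes altered by the nuclear receptor RORα as steatohepatitis advances. How many animals stand behind each library was not stated in the labels.

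Each genotype had 1 library, so differences have no replicate check, and the 95% exact intervals below hold counting error alone. Total counts were 131843686 in the library labelled LKO and 128201591 in the control library. Rora totalled 3677 counts (24.1 CPM) in the library labelled LKO and 3701 counts (33.4 CPM) in the control library, a log2 ratio of −0.47 after scaling between libraries and −0.050 with total-count scaling. This total takes in exons outside the deleted part, so it checks the label only in part, and results are worded for the library as labelled. Of the 8 hepatocyte markers, 7 were in the tables, with a summed 119742 CPM in the library labelled LKO and 161612 CPM in the control library. By a rule of 1.5-fold with an interval that excludes 1, 2 of the 7 were lower, Serpina1a and Cps1, and their median log2 ratio was −0.33, or 0.088 with total-count scaling. Of 6 Kupffer cell markers 5 were measured, and all 5 were lower by that rule, with a median of −0.89 (−0.47 with total-count scaling) and sums over the 6 of 39.5 CPM in the library labelled LKO and 73.8 CPM in the control library. Of 6 stellate cell and fibroblast markers, 3 were higher, Col1a1, Col3a1 and Reln, with sums of 267 CPM in the library labelled LKO and 188 CPM in the control library and a median of 0.60 (1.02 with total-count scaling). The 5 endothelial markers lay within 1.5-fold, at 129 CPM in the library labelled LKO and 117 CPM in the control library in sum. Cholangiocyte, lymphocyte, pancreatic acinar and adipocyte markers summed to at most 21.6 CPM in either library, with 1 measured marker in each list and 5 of the 6 acinar markers at 0 in both libraries. By the same 1.5-fold rule, 9.76% of all measured genes were lower and 10.5% higher. In bulk liver, fewer cells of a type and less RNA per cell cannot be told apart.

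Amino acid catabolism is concentrated in hepatocytes. Most pathways open with a committed enzyme (a transaminase, dioxygenase, ammonia lyase or dehydratase) whose gene, in the best studied cases, responds to glucocorticoids, glucagon and feeding. Later steps carry the carbon skeleton to pyruvate, acetyl-CoA or intermediates of the citric acid cycle. Histidine, serine and aromatic amino acids are degraded mainly in the cytosol, branched-chain amino acids, proline and lysine mainly in mitochondria.

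Tat, Tdo2, Kynu, Acmsd, Hal, Sds and Agxt, which act on tyrosine, tryptophan, histidine, serine and glyoxylate, were lower in the library labelled LKO, while all 9 measured genes for branched-chain amino acids lay within 1.5-fold of the control library (also with total-count scaling). Of the 39 measured members, 7 were lower by 1.5-fold or more, each with an interval that excluded 1, and 0 were higher by as much. Over all 11137 measured genes, 9.76% were lower and 10.5% higher by the same rule, and 8881 lay within 1.5-fold. Among genes with a mean of at least 10 CPM, which 37 members reached, 7 of 37 members were lower against 9.03% of 5380 genes, and 0 members were higher against 8.01%. At 2-fold, 3 of 39 members were lower (Acmsd, Sds and Tat) and 0 higher, beside 2.62% and 3.83% of all measured genes. The median log2 ratio of the members was −0.15, beside −0.003 for all measured genes. Of the 39 ratios, 28 lay below 1, as did 50.3% of those of all measured genes. The 7 lower members ran from 22.8 to 1301 CPM in mean level and so were not the faintest genes of the list.

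The scaling between libraries bears on every ratio. CPM were scaled with TMM, the trimmed mean of M-values, which centres the ratios of most genes on 1. If total counts were used instead, this would raise each log2 ratio by 0.42, and 16 of the 39 members would then turn from below to above 0. That would leave 12 of the 39 below 0, and the median over all measured genes would be 0.42. The count at 1.5-fold would be 3 members lower (Tat, Acmsd and Sds) and 5 higher (Ido2, Shmt2, Amt, Prodh and Gpt2), beside 2.53% and 34.6% of genes. The 16 that turn are Fah, Kmo, Haao, Uroc1, Amdhd1, Ftcd, Shmt1, Gldc, Gcsh, Dld, Bckdha, Bcat2, Ivd, Prodh2, Aass and Gpt. All 7 lower members kept a ratio below 1 under that scaling.

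**Figure D1:**
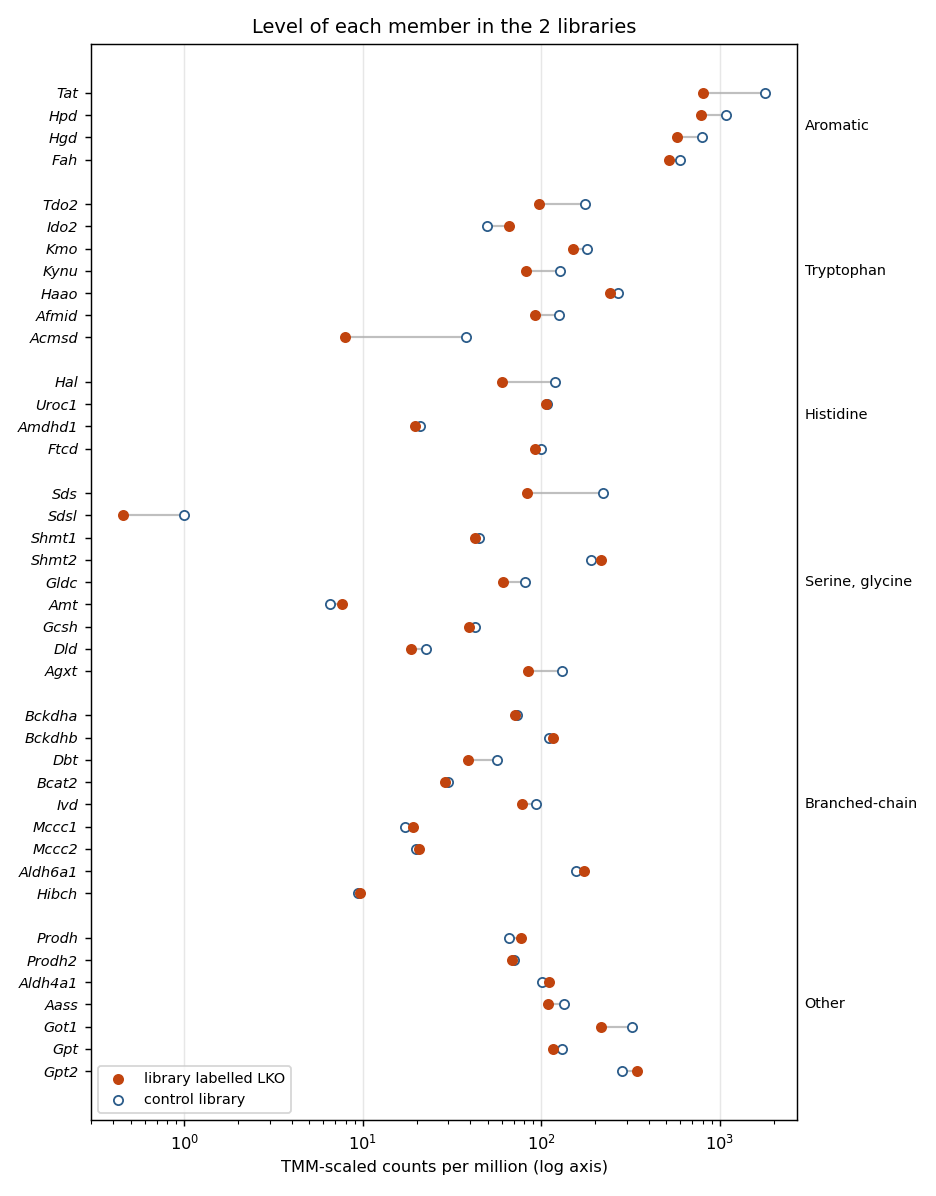
TMM-scaled CPM on a log axis for the 40 members with counts above 0, with filled points for the library labelled LKO and open points for the control library, ordered by amino acid group. The widest gaps are those of Acmsd, Sds and Tat, with the filled point to the left of the open one, and the branched-chain pairs nearly coincide apart from Dbt.

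Tyrosine breakdown was led by Tat, the tyrosine aminotransferase gene of the first step, a long-known glucocorticoid target. Tat had 803 CPM in the library labelled LKO and 1798 CPM in the control library, 2.24-fold lower (interval 2.22 to 2.26). Hpd, which makes homogentisate from the product of Tat, had 782 CPM in the library labelled LKO and 1088 CPM in the control library, a log2 ratio of −0.48. Hgd, the homogentisate dioxygenase gene, had 578 CPM in the library labelled LKO and 792 CPM in the control library, a log2 ratio of −0.46. Fah, the fumarylacetoacetase gene that ends the pathway, had 516 CPM in the library labelled LKO and 596 CPM in the control library, a log2 ratio of −0.21 that turns positive with total-count scaling. All 4 ratios lay below 1, with Tat the lowest and Fah the highest of the 4. Their median log2 ratio was −0.47, and it was −0.05 with total-count scaling. Gstz1, which acts between Hgd and Fah and is not a member, had a log2 ratio of −0.17, nearer to 0 than that of Fah. Relative to Fah, Tat was 1.94-fold lower (interval 1.92 to 1.96), a comparison of counts within each library that no scaling between libraries can alter.

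Tryptophan breakdown showed the lowest ratio of the members. Acmsd, the decarboxylase gene that steers the kynurenine pathway away from NAD synthesis, had 1204 counts (7.90 CPM) in the library labelled LKO and 4169 counts (37.6 CPM) in the control library. It was 4.76-fold lower (interval 4.47 to 5.08). Haao, which encodes the dioxygenase of the step before, had 241 CPM in the library labelled LKO and 269 CPM in the control library, a log2 ratio of −0.15, positive with total-count scaling. Relative to Haao, Acmsd was 4.28-fold lower (interval 4.01 to 4.58). An exon of Acmsd overlaps 2900009J06Rik on the opposite strand, which had 34 counts in the library labelled LKO and 275 in the control library. As strand use in the counting is unknown, reads of the 2 genes cannot be told apart.

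The entry to the pathway held genes that moved apart. Tdo2, the tryptophan dioxygenase of hepatocytes, had 97.4 CPM in the library labelled LKO and 176 CPM in the control library, 1.81-fold lower (interval 1.77 to 1.85). Ido2, an indoleamine dioxygenase gene for the same reaction, had 66.1 CPM in the library labelled LKO and 49.7 CPM in the control library, a log2 ratio of 0.41 and the highest of the members. Tdo2 relative to Ido2 was 2.41-fold lower (interval 2.32 to 2.51). Kynu, the kynureninase gene, had 81.5 CPM in the library labelled LKO and 127 CPM in the control library, 1.56-fold lower (interval 1.52 to 1.59). Afmid, the kynurenine formamidase gene, and Kmo, the kynurenine hydroxylase gene, had log2 ratios of −0.43 and −0.27. Of the 7 tryptophan genes, 3 were thus at least 1.5-fold lower and only Ido2 had a ratio above 1. Their median log2 ratio was −0.43, and −0.01 with total-count scaling, where Tdo2 stood at −0.44 and Kynu at −0.22.

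In histidine breakdown the gene of the first enzyme was lower by 1.5-fold or more, and the other 3 genes were within 1.5-fold. Hal, the histidine ammonia lyase gene, had 60.3 CPM in the library labelled LKO and 119 CPM in the control library, 1.97-fold lower (interval 1.92 to 2.03). Uroc1, the urocanate hydratase gene of the second step, had 106 CPM in the library labelled LKO and 108 CPM in the control library, and its interval held 1. Amdhd1 and Ftcd, which act after it, stood at log2 ratios of −0.09 and −0.11, which total-count scaling turns positive. Relative to Uroc1, Hal was 1.94-fold lower (interval 1.88 to 2.01). The Hal gene occupies bases 93488768 to 93519304 of chromosome 10, plus strand (mm10), and Amdhd1 is the next member along, from 93523338 to 93540033 on the minus strand. The intervals of these neighbours did not overlap. The group median was −0.10, and 0.32 with total-count scaling.

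Serine and glycine breakdown was lower at serine dehydratase and at the glyoxylate aminotransferase. Sds, the dehydratase gene that turns serine into pyruvate, had 12624 counts (82.8 CPM) in the library labelled LKO and 24649 counts (222 CPM) in the control library, 2.69-fold lower (interval 2.63 to 2.74). Its neighbour and relative Sdsl had only 69 counts in the library labelled LKO and 111 in the control library, and did not pass the filter. The change of Sds relative to Sdsl was 0.824 with an interval of 0.604 to 1.13, so a difference between their ratios was not detectable at this depth. An exon of Sds overlaps Plbd2 on the opposite strand, and Plbd2 had a log2 ratio of 0.32, opposite in sign to Sds. Agxt, the aminotransferase gene that makes glycine from glyoxylate, had 84.0 CPM in the library labelled LKO and 131 CPM in the control library, 1.56-fold lower (interval 1.53 to 1.60). Tdh, the threonine dehydrogenase gene, had 0 counts in both libraries, where a floor of 3 counts allows up to 0.0197 CPM in the library labelled LKO and 0.0271 CPM in the control library.

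The glycine cleavage system and the serine hydroxymethyltransferases differed less. Gldc, the glycine decarboxylase gene, had 61.1 CPM in the library labelled LKO and 80.9 CPM in the control library, a log2 ratio of −0.41, which is 0.01 with total-count scaling. Its partners Amt, Gcsh and Dld, for the aminomethyltransferase, the lipoyl carrier and the shared dehydrogenase, had log2 ratios of 0.23, −0.11 and −0.28. Shmt2, the mitochondrial hydroxymethyltransferase gene, had 216 CPM in the library labelled LKO and 189 CPM in the control library, a log2 ratio of 0.19. Shmt1, its cytosolic counterpart, had 42.6 CPM in the library labelled LKO and 44.5 CPM in the control library, a log2 ratio of −0.06. Shmt2 relative to Shmt1 was 1.19-fold higher (interval 1.14 to 1.24). The median over the 8 measured genes of this group was −0.20, and 0.22 with total-count scaling.

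**Figure D2:**
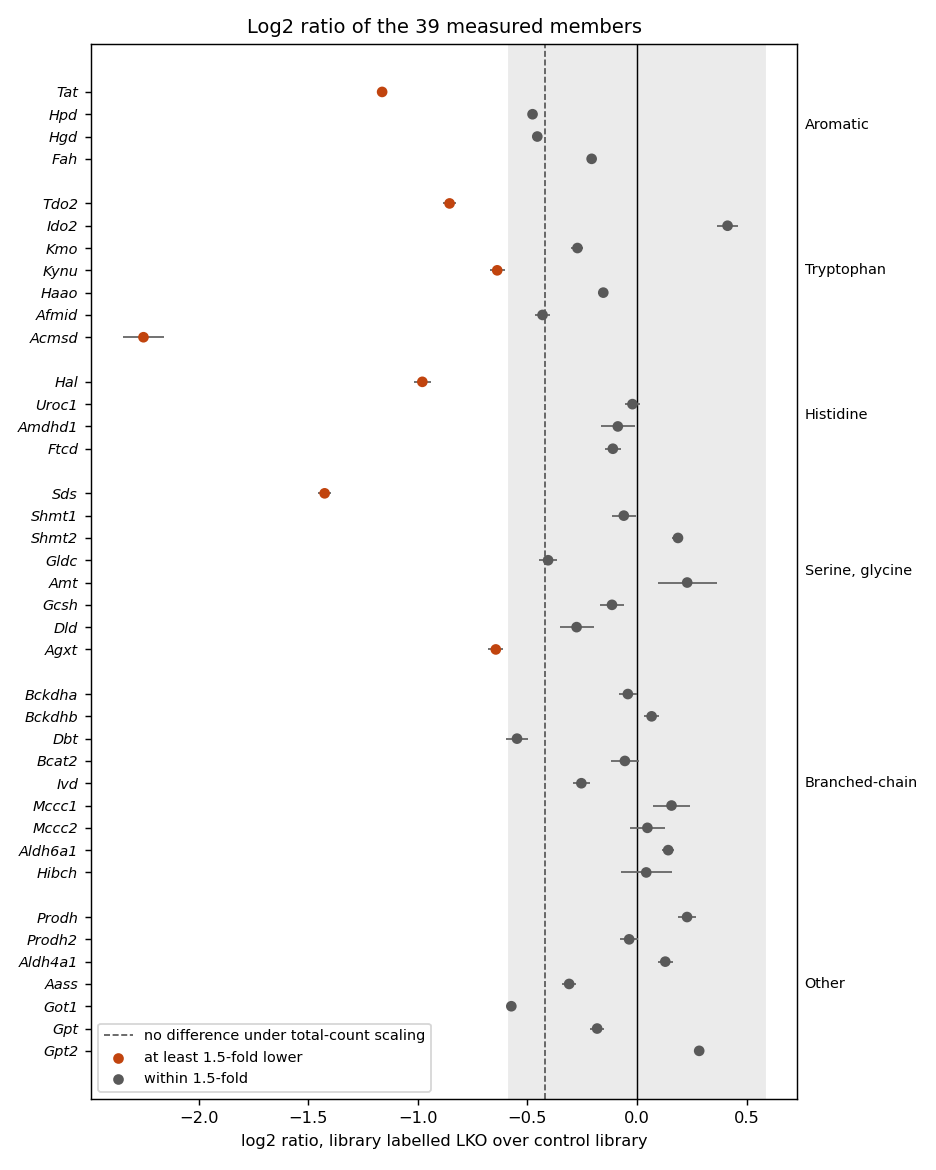
Log2 ratio of the 39 measured members, library labelled LKO over control library, with TMM scaling. Bars are 95% exact intervals for counting error, the grey band marks ratios within 1.5-fold, and the dashed line at −0.42 marks equality under total-count scaling; 7 members lie left of the band and 0 right of it.

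Branched-chain amino acid breakdown stayed within 1.5-fold at all 9 genes, as did 8881 of all 11137 measured genes. The 9 log2 ratios ran from −0.55 to 0.16, with a median of 0.04 (0.46 with total-count scaling) and a mean of −0.05. The lowest was Dbt, the core acyltransferase of the branched-chain ketoacid dehydrogenase complex, with 38.8 CPM in the library labelled LKO and 56.7 CPM in the control library. The genes of the decarboxylase subunits of that complex were close to equal, with 70.7 CPM in the library labelled LKO and 72.8 CPM in the control library for Bckdha, and 116 CPM in the library labelled LKO and 110.4 CPM in the control library for Bckdhb. Dbt relative to Bckdhb was 1.53-fold lower (interval 1.47 to 1.60). Bcat2, the mitochondrial transaminase of the first step, had 28.8 CPM in the library labelled LKO and 30.0 CPM in the control library, and its interval held 1. On the leucine branch, Ivd, the isovaleryl-CoA dehydrogenase gene, had a log2 ratio of −0.25, and Mccc1 and Mccc2, for the carboxylase subunits, had 0.16 and 0.05. On the valine branch, Hibch, a hydrolase gene, and Aldh6a1, a semialdehyde dehydrogenase gene, had 0.04 and 0.14.

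The remaining enzymes also lay within 1.5-fold. Got1, the cytosolic aspartate aminotransferase gene, was closest to the threshold, with 215 CPM in the library labelled LKO and 320.5 CPM in the control library, 1.49-fold lower (interval 1.47 to 1.51). The alanine aminotransferase genes differed from each other. Gpt2, for the mitochondrial enzyme, had 344 CPM in the library labelled LKO and 283 CPM in the control library, a log2 ratio of 0.28. Gpt, for the cytosolic enzyme, had 116 CPM in the library labelled LKO and 131 CPM in the control library, a log2 ratio of −0.18 that turns positive with total-count scaling. Gpt2 relative to Gpt was 1.38-fold higher (interval 1.35 to 1.42). Of the proline genes, Prodh, the proline dehydrogenase gene, had a log2 ratio of 0.23, Prodh2, the hydroxyproline dehydrogenase gene, had −0.04 and Aldh4a1, which acts next for both, had 0.13. Aass, the bifunctional gene that opens lysine breakdown, had 109 CPM in the library labelled LKO and 135 CPM in the control library, a log2 ratio of −0.31. The median over these 7 genes was −0.04, and 0.38 with total-count scaling.

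By place in the cell, a grouping made after the ratios were seen, the members with cytosolic enzymes held 6 of the 7 lower genes. Of 18 measured cytosolic members, 6 were at least 1.5-fold lower and 17 had a ratio below 1, with a median log2 ratio of −0.44, beside −0.02 with total-count scaling. Of 20 measured mitochondrial members, 0 were at least 1.5-fold lower or higher, 10 had a ratio below 1, and the median was 0.003, beside 0.42 with total-count scaling and a mean of −0.04. Over all measured genes, 9.76% were lower and 10.5% higher by the same rule, and 50.3% had a ratio below 1. Agxt, whose enzyme sits in peroxisomes and, in some species, mitochondria, was counted with neither. For a fixed set of members, the difference between these medians does not depend on the scaling between libraries, and it was not tested. Which members pass the filter can change with the scaling. Every aromatic and histidine member was cytosolic and every branched-chain member mitochondrial, so place in the cell and amino acid group largely coincide. Genes outside the members were not grouped in this way.

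**Figure D3:**
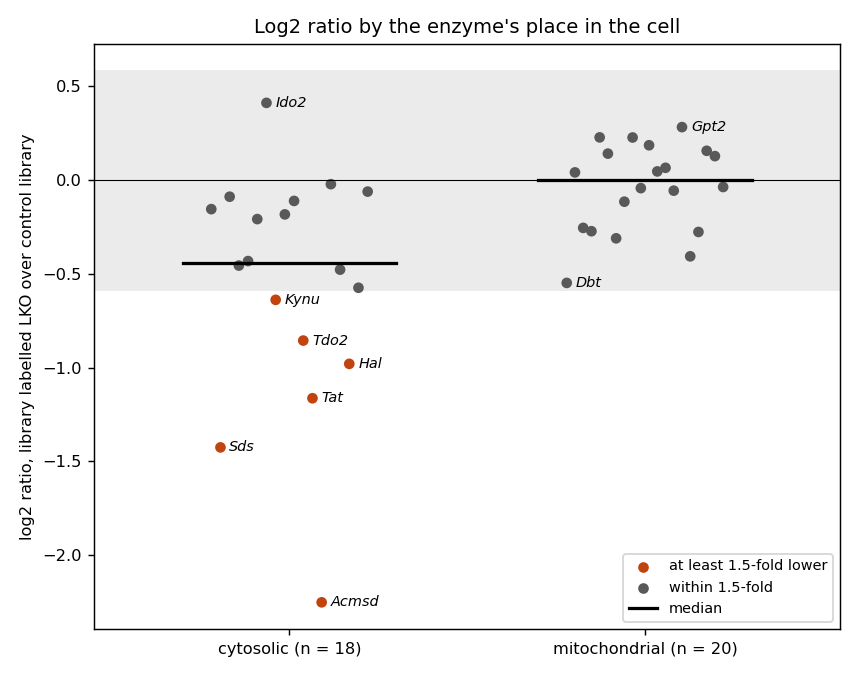
Log2 ratio, library labelled LKO over control library, of 18 cytosolic and 20 mitochondrial members, each point a gene and each black line the median; the sideways spread of points carries no value. The grey band marks ratios within 1.5-fold, and the 6 genes below it are Acmsd, Sds, Tat, Hal, Tdo2 and Kynu in the cytosolic column.

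Per kilobase of the longest annotated transcript, the tyrosine genes were the most abundant members in both libraries. Hpd stood first, with 557 CPM per kb in the library labelled LKO and 775 CPM per kb in the control library. The next places were taken by Hgd, Tat and Fah in the library labelled LKO, at 339, 338 and 326 CPM per kb, and by Tat, Hgd and Fah in the control library, at 757, 465 and 376 CPM per kb. Sds ranked 10 of the 41 in the library labelled LKO and 5 in the control library, Tdo2 ranked 22 in the library labelled LKO and 13 in the control library, and Acmsd ranked 37 in the library labelled LKO and 32 in the control library. With TMM scaling, the levels of the 41 members summed to 5838 CPM in the library labelled LKO and 7998 CPM in the control library. The sum was 1.37-fold lower in the library labelled LKO. Total-count scaling raises every log2 ratio by 0.42, which would bring these sums close to equal. Tat alone had 803 CPM in the library labelled LKO and 1798 CPM in the control library. The 4 tyrosine genes made up 2679 CPM of the sum in the library labelled LKO and 4274 CPM of that in the control library.

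Promoter windows of RefSeq (GRCm38.p6, 250 bases before to 50 after each start) were given for 34 of the 41 members, among them 5 of the 7 lower ones (not Sds and Kynu). They were searched on both strands for TAGGTCA, the core of the element bound by ROR receptors without its AT-rich flank, and for 4 other elements. TAGGTCA was in 2 of the 34 members, Tdo2 and Aass, and in 2.97% of 27025 genes. AGGTCA, the core of many nuclear receptor sites, which lies within TAGGTCA, was in 11 of the 34 and in 18.1% of genes. Of the 11, Acmsd and Tdo2 were lower members. Aass, Aldh6a1, Amt, Bckdhb, Got1, Haao, Hgd, Prodh2 and Uroc1 lay within 1.5-fold. The cAMP response element TGACGTCA was in 0 of the 34 and in 2.03% of genes, the C/EBP letters TTGCNNAA in 5 and in 12.2%, and the glucocorticoid receptor core ACANNNTGT in 4 and in 7.90%. The last of these was held by the lower members Hal and Tdo2 and by Bckdhb and Ivd, which lay within 1.5-fold. A gene with several windows counted once if any of them held the element. The Bckdhb match lay in a window inside the gene, chr9:83948531-83948830. The 250 bases before the start are shown for Tdo2 and Hal, the lower members that held 2 of these elements or more, from chr3:81975729-81975978 (minus strand) for Tdo2 and chr10:93488518-93488767 (plus strand) for Hal, each 5′ to 3′ on the gene's strand.
Tdo2: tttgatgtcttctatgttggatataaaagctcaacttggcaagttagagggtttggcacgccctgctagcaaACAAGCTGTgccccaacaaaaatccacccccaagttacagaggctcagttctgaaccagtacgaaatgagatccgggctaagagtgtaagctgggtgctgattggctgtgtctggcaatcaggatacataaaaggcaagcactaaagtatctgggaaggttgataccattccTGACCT
Hal: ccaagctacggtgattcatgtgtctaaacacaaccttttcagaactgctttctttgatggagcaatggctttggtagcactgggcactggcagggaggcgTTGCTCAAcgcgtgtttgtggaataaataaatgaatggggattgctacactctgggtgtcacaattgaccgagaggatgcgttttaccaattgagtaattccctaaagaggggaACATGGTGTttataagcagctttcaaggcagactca
Capitals mark the matches: TGACCT, the reverse complement of AGGTCA, in Tdo2 from −6 to −1 relative to the start (where the next base, at the start, completes TAGGTCA), ACAAGCTGT in Tdo2 from −178 to −170, and TTGCTCAA from −150 to −143 and ACATGGTGT from −36 to −28 in Hal. Starts are those of RefSeq. In GENCODE M21 the Tdo2 gene, on the minus strand, reaches to base 81976202, so the Tdo2 window shown lies inside that gene. A match is a stretch of letters and not a measured site, and a window without one says nothing of the factor.

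The other enzymes of these pathways, 57 genes chosen from textbook pathways, mostly lay within 1.5-fold. By the 1.5-fold rule, 1 of the 50 measured was higher and 5 were lower, beside 10.5% and 9.76% of all measured genes. The median log2 ratio of the 50 was −0.10 (0.32 with total-count scaling). Of the lower ones, Gnmt, the glycine methyltransferase gene, was 1.56-fold lower, Acadsb, of isoleucine breakdown, 1.65-fold lower, and Ddc, the aromatic amino acid decarboxylase gene, 2.33-fold lower. Aldh18a1, of proline synthesis, was 2.03-fold lower at 126 counts in the library labelled LKO and 186 in the control library. The higher gene was Mmab, of cobalamin handling, with 8.79 CPM in the library labelled LKO and 5.70 CPM in the control library, 1.54-fold higher (interval 1.40 to 1.70). Dhtkd1, of lysine breakdown, and Ppm1k, which activates the branched-chain ketoacid dehydrogenase, had the next highest log2 ratios, 0.51 and 0.49. Gstz1, which acts between Hgd and Fah, was the most abundant of these genes per kb in the library labelled LKO, and Gnmt was in the control library. Gstz1 had a log2 ratio of −0.17, positive with total-count scaling.

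**Figure D4:**
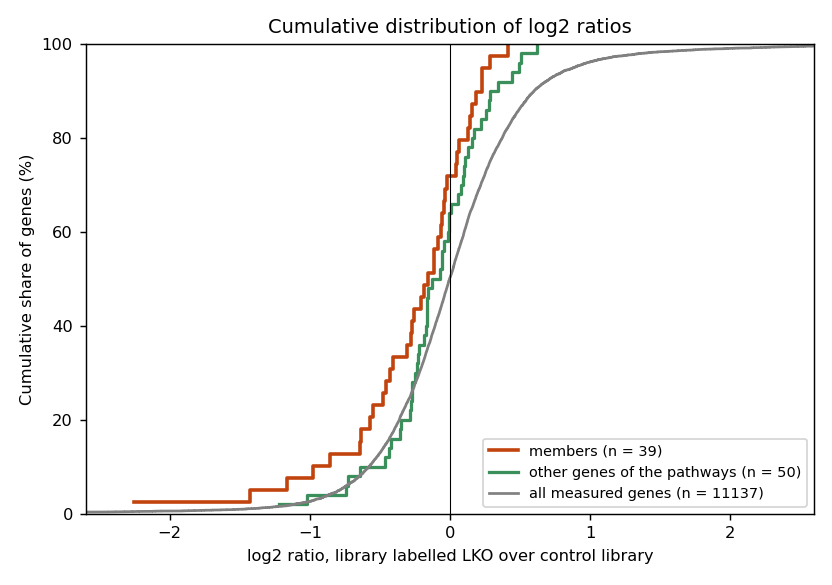
Cumulative share of genes (%) against the log2 ratio, library labelled LKO over control library, for 39 members, 50 other genes of the pathways and 11137 measured genes, drawn from −2.6 to 2.6. The members end at 0.41 on the right, where the curve of all measured genes goes on. At a ratio of 1 the members reach 28 of 39 and all measured genes 50.3%.

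Genes with a known position along the liver lobule also differed between the libraries. Of 11 genes typical of hepatocytes near the portal vein, where Hal and Sds are also known to be expressed, 7 were lower by 1.5-fold or more and 0 higher by as much. The shares over all measured genes were 9.76% lower and 10.5% higher. The median log2 ratio of the 11 was −0.74 (−0.32 with total-count scaling). Among the 7, Cyp2f2, a cytochrome P450 gene, had 569 CPM in the library labelled LKO and 949 CPM in the control library. Cps1, also among the 7, is 1 of the lower hepatocyte markers given above. Of 11 genes typical of hepatocytes near the central vein, 4 were higher and 1 lower by the same rule, with a median of 0.46 (0.88 with total-count scaling). Among them Glul, the glutamine synthetase gene, had 508 CPM in the library labelled LKO and 231 CPM in the control library. The part of these shifts, and of the hepatocyte, Kupffer cell and stellate cell marker values given above, in the values of the members was not tested.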

How the data were processed

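The deposited values are raw read counts (whole numbers) for each gene symbol, in a separate table for each library. Per the labels' protocols, Trizol RNA (500 ng) was made into libraries with a LEXOGEN mRNA-Seq kit. The build was mm10 and the tools named are TopHat and edgeR, per the submitters' processing notes. Not given in the sources used here are the counter, the annotation, strand use and how reads with several alignments were treated.

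TMM factors from edgeR 4.0.16 (R 4.3.3) were 1.16 for the library labelled LKO and 0.865 for the control library. The ratio of TMM-scaled CPM, LKO over control, was computed for every gene with a 95% Clopper-Pearson interval given both counts' sum (scipy 1.17.1). Measured genes had at least 20 counts over both libraries and at least 1 CPM on average, and a difference was counted at 1.5-fold or 2-fold with an interval that excluded 1. No test was made and no p-value is given, as 1 library per genotype leaves no spread. PCR duplicates are not independent molecules, so intervals and the floor of 3 counts cover counting error only. Changes of 1 member relative to another are odds ratios of the 4 counts with exact conditional intervals.

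GENCODE M21, built on GRCm38 as is mm10, was matched by symbol and gave coordinates and transcript lengths for all 41 members. Exons of 8 members overlap another gene of the tables, all on the opposite strand, and 10 members have several curated RefSeq transcripts. The computation of ratios and intervals was checked on simulated counts that held counting error only. That check says nothing of spread between animals, duplicates or the scaling. Members and lists were chosen with earlier results of these data known. All 41 members are named, and of the other pathway genes the 3 highest, the 3 lowest and the most abundant per kb in each library. Cyp2f2, Glul, the genes overlapping a member and 4 of the pairs of members (Hal and Uroc1, Tat and Fah, Acmsd and Haao, Dbt and Bckdhb) were chosen after their values were seen. Alternatives covered filters, added counts, fold thresholds, intervals and 4 other scalings: the total count, DESeq2's median of ratios (version 1.42.0), the upper quartile, and the total after the 20 most abundant genes were left out. A few items are not reported here.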

Additional observations from a re-analysis of the deposited data

How the results depend on the processing

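The count of 7 lower members and 0 higher held with the median of ratios, a mean CPM of at least 10, added counts of 0.5 or 5, no interval criterion, a stricter interval and counts divided by 2. It was 8 and 0 with the upper quartile and with no filter on CPM, and 6 and 0 with totals without the 20 most abundant genes. With total-count scaling it was 3 lower and 5 higher, beside 2.53% and 34.6% of genes. With a 2-fold threshold it was 3 and 0, beside 2.62% and 3.83%. With a threshold of 0.32 on the log2 scale it was 13 and 1, beside 22.6% of all measured genes lower and 22.8% higher. No called member changed sign under any scaling tried.

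Total-count scaling raises every log2 ratio by 0.42 and totals without the 20 most abundant genes raise it by 0.12, by construction. Under these 2 scalings, in that order, the median of the members was 0.27 and −0.048, of the aromatic group −0.047 and −0.35, of tryptophan −0.012 and −0.31, of histidine 0.32 and 0.021, of branched-chain 0.46 and 0.16 and of the remaining enzymes 0.38 and 0.084. Under total count the serine and glycine median was 0.22, and it was −0.28 both at 10 CPM or more and with no filter on CPM, where other members entered or left. The aromatic median was −0.48 with the upper quartile. The other pathway genes had 2 lower and 10 higher with total count, 3 higher without the 20 most abundant genes, 0 higher with a mean CPM of at least 10, 2 lower and 0 higher at 2-fold, and 10 of 50 lower and 5 higher at a log2 threshold of 0.32, where the shares of all measured genes given above apply. Over all measured genes, 2.53% were lower and 34.6% higher with total count, and 16.4% were higher without the 20 most abundant genes. The median of the other pathway genes was 0.32 with total count, −0.0054 without the 20 most abundant genes and −0.14 with a mean CPM of at least 10. No paired analysis was possible because each genotype has 1 library. Depth limits only Sdsl and Tdh among the members.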
